A study of Mus musculus with 20 samples.

Results

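The glycolysis and hypoxia target genes examined here are 35 genes of the deposited mouse count table, chosen by a list of symbols out of its 22090 genes. They comprise 19 genes of glucose uptake and the glycolytic enzymes, 4 genes of pyruvate and lactate handling, 2 carbonic anhydrases that act on pH, and 10 further genes known to be induced in low oxygen. All 35 had a count in at least 1 sample, and 34 passed the filter on low counts in each comparison, the exception being Eno2. RNA-seq was performed on 20 back skin tissues of 8 female SKH-1 mice, an outbred hairless strain used in skin tumor studies, aged 7 months when supplied. Of these, 4 mice were exposed to UVA and UVB from a solar simulator (daily per the labels, 4 times weekly per the methods) and 4 were not. Per the methods the exposure ran for 28 weeks before the mice were killed, so they were older when sampled. The tissues were normal skin (NS, n = 8), the pre-cancerous lesion actinic keratosis (AK, n = 8) and cutaneous squamous cell carcinoma (cSCC, n = 4). Each unirradiated mouse gave 1 NS, and each irradiated mouse gave 1 NS, 2 AK and 1 cSCC, so the AK and cSCC samples stand for 4 mice. The sample labels give neither the mouse of a tissue nor which NS were irradiated, so the samples were treated as unpaired, and tissues of the same mouse could make the p-values too small.

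Glycolysis breaks glucose down to pyruvate in the cytoplasm, and lactate dehydrogenase then turns pyruvate into lactate, which monocarboxylate transporters carry out of the cell. When oxygen is low, the transcription factor HIF-1 escapes degradation, binds DNA at sites with the core ACGTG or GCGTG, and raises transcription of glucose transporters, most glycolytic enzymes and genes that act on pH, mitochondrial removal, collagen maturation and blood vessels. Squamous tumors of the skin grow from keratinocytes and often outgrow their blood supply, and many tumors also use glycolysis where oxygen is present.

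Levels are given in CPM, a gene's count scaled to its library's total after TMM normalization, which sets libraries to a common base. Total counts per sample were 1624325 to 6295575 in NS, 867219 to 14055206 in AK and 775750 to 7095102 in cSCC, and a level of 3 counts corresponded to 0.225 to 3.78 CPM depending on the library, which covers counting error only. Keratinocyte markers were present in every sample, with a summed level of 9880 to 30200 CPM in NS, 15300 to 25000 in AK and 9160 to 30500 in cSCC over 12 genes. Among the 4 cSCC samples, 3 stood apart. Haemoglobin genes took 46.8% of the counts of cSCC 18 (95% Wilson interval 46.76 to 46.87), 14.3% of those of AK 14 and at most 6.02% elsewhere. Lung markers (12 genes) summed to 36600 CPM in cSCC 20 and at most 135 CPM in the other samples. Heart muscle markers (12 genes) summed to 61500 CPM in cSCC 21 and at most 184 CPM in the other samples, which goes against a pure skin label for both tissues. The sample cSCC 19 had none of these, with haemoglobin at 1.44% of counts, and results that rest on a named sample are given with and without it. Endothelial markers (12 genes) were at 154 to 1070 CPM in cSCC, above every NS (49.3 to 143) and AK (53.3 to 129) sample, and neutrophil markers (10 genes), at 2760 to 14800 CPM in cSCC, overlapped with NS (88.7 to 6000) and AK (637 to 3150). The part of these cells in the results was not tested, and in bulk tissue fewer cells of a type and less RNA per cell cannot be told apart.

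The stretch of 150 bases before the start site is shown for the 7 genes with a promoter entry that were higher in both AK and cSCC than in NS, and for Slc16a3 and Adm, which were called in cSCC vs. NS and not in AK vs. NS. The sequences are RefSeq's on GRCm38.p6, written 5′ to 3′ along the gene's strand, and capitals mark ACGTG or its reverse complement CACGT. A pair of matches that overlap as CACGTG counts as 1 palindrome, and Ero1l is listed by RefSeq as Ero1a.
Slc2a1, chr4:119108595-119108744, plus strand: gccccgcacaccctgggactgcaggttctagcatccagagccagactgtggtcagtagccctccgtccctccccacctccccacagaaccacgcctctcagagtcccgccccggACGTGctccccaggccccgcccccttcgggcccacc
Pfkfb3, chr2:11553930-11554079, minus strand: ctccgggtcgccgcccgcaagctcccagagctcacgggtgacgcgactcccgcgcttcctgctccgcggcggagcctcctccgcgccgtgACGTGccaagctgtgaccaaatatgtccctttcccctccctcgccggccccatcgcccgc
Pgk1, chrX:106186950-106187099, plus strand: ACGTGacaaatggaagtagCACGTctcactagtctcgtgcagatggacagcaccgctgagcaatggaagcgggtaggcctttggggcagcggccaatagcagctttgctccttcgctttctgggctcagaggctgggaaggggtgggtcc
Pgam1, chr19:41911721-41911870, plus strand: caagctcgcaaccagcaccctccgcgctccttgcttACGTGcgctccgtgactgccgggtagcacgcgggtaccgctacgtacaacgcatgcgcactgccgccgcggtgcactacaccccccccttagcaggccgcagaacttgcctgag
Ldha, chr7:46845654-46845803, plus strand: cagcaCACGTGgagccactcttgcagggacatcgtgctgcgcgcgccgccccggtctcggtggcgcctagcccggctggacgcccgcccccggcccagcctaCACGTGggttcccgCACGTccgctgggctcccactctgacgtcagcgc
Bnip3, chr7:138909507-138909656, minus strand: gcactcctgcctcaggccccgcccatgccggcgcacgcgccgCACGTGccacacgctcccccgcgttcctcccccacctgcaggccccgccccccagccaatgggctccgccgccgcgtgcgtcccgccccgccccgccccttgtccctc
Ero1l, chr14:45318573-45318722, minus strand: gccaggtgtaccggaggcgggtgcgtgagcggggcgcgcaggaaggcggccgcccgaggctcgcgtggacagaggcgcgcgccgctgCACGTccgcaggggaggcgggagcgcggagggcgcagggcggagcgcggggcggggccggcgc
Slc16a3, chr11:120948917-120949066, plus strand: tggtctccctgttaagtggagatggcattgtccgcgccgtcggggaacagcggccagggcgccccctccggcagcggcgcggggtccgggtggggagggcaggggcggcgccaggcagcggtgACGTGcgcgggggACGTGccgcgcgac
Adm, chr7:110627507-110627656, plus strand: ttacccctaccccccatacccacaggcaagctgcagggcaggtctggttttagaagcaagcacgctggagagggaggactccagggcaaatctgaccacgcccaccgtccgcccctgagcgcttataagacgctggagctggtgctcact

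Across the window from 250 bases before to 50 bases after the start site, ACGTG on either strand was found in 18 of the 31 members with a RefSeq promoter entry (58.1%) and in 19.7% of the 27025 promoters of all genes. Members' promoters were richer in G+C, with a median of 65.0% against 56.3% for 17492 protein-coding genes, and with G+C of at least 60% the shares were 77.8% of 18 members and 26.8% of 6754 protein-coding genes. The other core, GCGTG, was found in 58.1% of members, 32.5% of all promoters and 38.4% of those of protein-coding genes, and was not compared at like G+C. All 7 genes printed above that were higher in both lesions held ACGTG, Ldha with 3 places in the printed stretch, of which 2 are CACGTG. However, ACGTG did not separate members that were higher in cSCC (59.1% of 22) from those that were not (55.6% of 9). Adm, the member with the largest called fold change from NS to cSCC, had no ACGTG in this window, whereas its printed stretch holds cacgc, the reverse complement of GCGTG. No promoter entry was found for Slc2a3, Bnip3l, Ndrg1 and Plod2.

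In AK vs. NS, 10 of the 34 members tested were higher and none was lower, against a background of 2.26% of 11677 genes higher and 2.38% lower (4.64% in either direction). The 10 genes were the glucose transporter Slc2a1, Hk2, Pfkfb3, Pgk1 and Pgam1 of glycolysis, Ldha and the lactate transporter Slc16a1, and the hypoxia targets Bnip3, Ndrg1 and Ero1l. Their fold changes were modest, from 1.61 (Ero1l) to 2.75 (Ndrg1), and no member had every AK sample above every NS sample (0.394% of all genes did). A gene was called when the quasi-likelihood test of edgeR gave it an adjusted p-value (Benjamini-Hochberg) below 0.05 with a fold change above 1.5 or below 0.67. For lower members edgeR gave 0, an unadjusted p-value under 0.05 gave 2 (Hk1 and Pfkm), and DESeq2 and limma voom each gave 1 (Hk1). The median log2 fold change was 0.45 over members and -0.04 over all genes. The count of 10 depended on the samples in the fit: a fit over all 20 samples called 0 members, and the count fell to 3 without NS 4, 5 without NS 1 or AK 16, and 6 without NS 2, NS 5, AK 12 or AK 13. For these fits the shares of all genes called are not given here, so the counts have no background.

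In the AK comparison the NS samples were themselves uneven. Slc2a1 was at 141, 105 and 161 CPM in NS 6, 7 and 8 and at 30.8 to 65.0 CPM in the other NS, and Hk2 was at 143, 173 and 127 CPM against 63.4 to 82.4 CPM. These 3 were the highest NS samples for both genes, with NS 8 inside the AK range for Slc2a1 and NS 7 for Hk2. Keratinocyte markers were also highest in these 3 samples. Their summed levels were 23200, 27700 and 30200 CPM in NS 6, 7 and 8 and 9880 to 20700 CPM in the other NS. In NS 5, at 20700 CPM, Slc2a1 was the highest of the other NS (65.0 CPM) and Hk2 the lowest of all NS (63.4 CPM). Which NS came from irradiated mice is not in the labels, and the part of irradiation or of keratinocytes in the result was not tested.

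In cSCC vs. NS, 24 of 34 members were higher and none was lower, against 11.7% of 12097 genes higher and 7.65% lower. The higher members included 12 of 18 genes of glucose uptake and glycolysis, 3 of 4 of pyruvate and lactate handling (Ldha, Slc16a3 and Pdk1), Car9 of the 2 carbonic anhydrases, and 8 of the 10 other hypoxia targets. The largest fold changes were those of Adm (9.60), Car9 (8.44) and Ero1l (7.23). The median log2 fold change was 1.71 over members and 0.14 over all genes. In 7 members (Pfkfb3, Eno1, Ldha, Slc16a3, Adm, Bnip3 and P4ha1) every cSCC sample was above every NS sample, as in 2.70% of all genes. With only cSCC 18 and 19 kept, 21 members were higher, and without the haemoglobin genes 23. The shares of all genes called in these fits are not given here, so these counts cannot be set against 11.7%. The count of lower members was 0 in edgeR, also at an unadjusted p-value under 0.05, and 0 in DESeq2 and limma voom.

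In cSCC vs. AK, 18 of 34 members were higher and none was lower, against 16% of 12032 genes higher and 8.34% lower. Of the glycolytic enzymes, Hk1, Gpi1, Pfkl, Pfkm, Aldoa, Tpi1, Gapdh, Eno1 and Pkm were higher in this comparison and did not pass the test in AK vs. NS. Conversely, Pgk1, Pgam1, Pfkfb3, Bnip3 and Ndrg1 were higher in both lesions than in NS and did not pass the test between cSCC and AK. Slc2a1, Ldha and Ero1l passed in all 3 comparisons. The median log2 fold change was 1.01 over members and 0.17 over all genes, and 4 members (Aldoa, Eno1, Slc16a3 and Plod2) had groups that did not overlap, against 3.33% of all genes. An unadjusted p-value under 0.05 gave 1 lower member (Car12), and DESeq2 and limma voom gave 0. The count of higher members was 11 with limma voom and 16 with only cSCC 18 and 19 kept, and the shares of all genes called in these fits are not given here. The comparisons share samples, so their lists are not independent of each other. The mean levels rose in the order NS, AK, cSCC in 24 of the 34 members and in 18.6% of all genes.

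**Figure D1:**
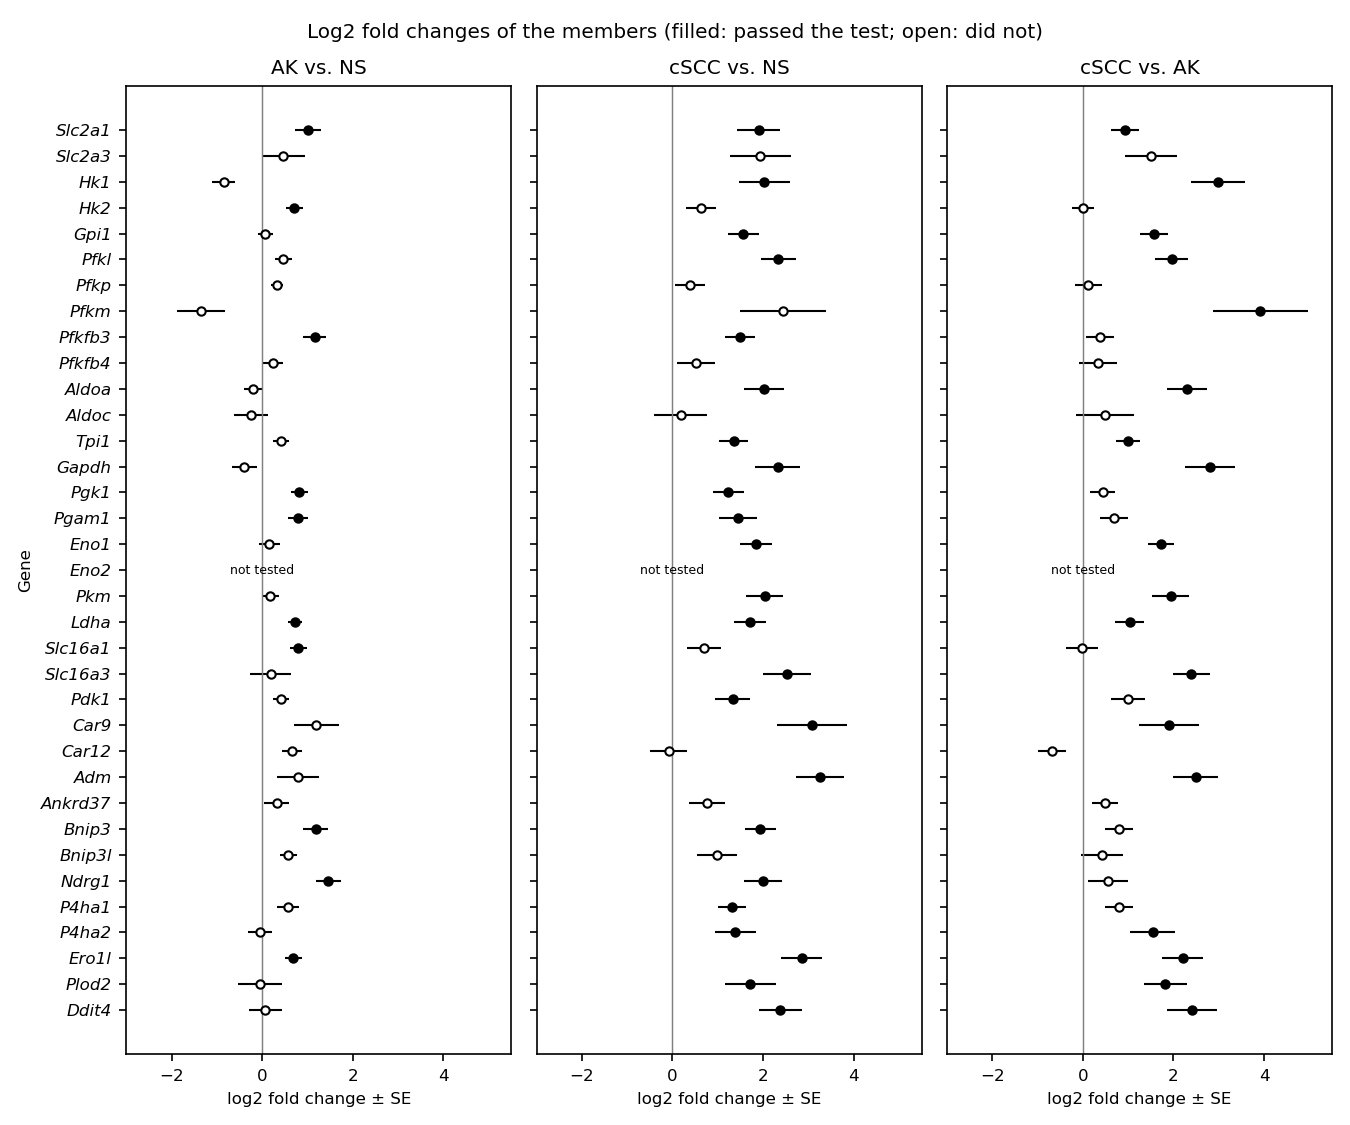
Log2 fold change ± SE (x axis) of the 35 members (y axis), with a panel for each of the 3 comparisons, and with filled points for genes that passed the test and open points for those that did not. There are 10, 24 and 18 filled points, all to the right of 0, and Pfkm has the widest error bars.

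**Figure D2:**
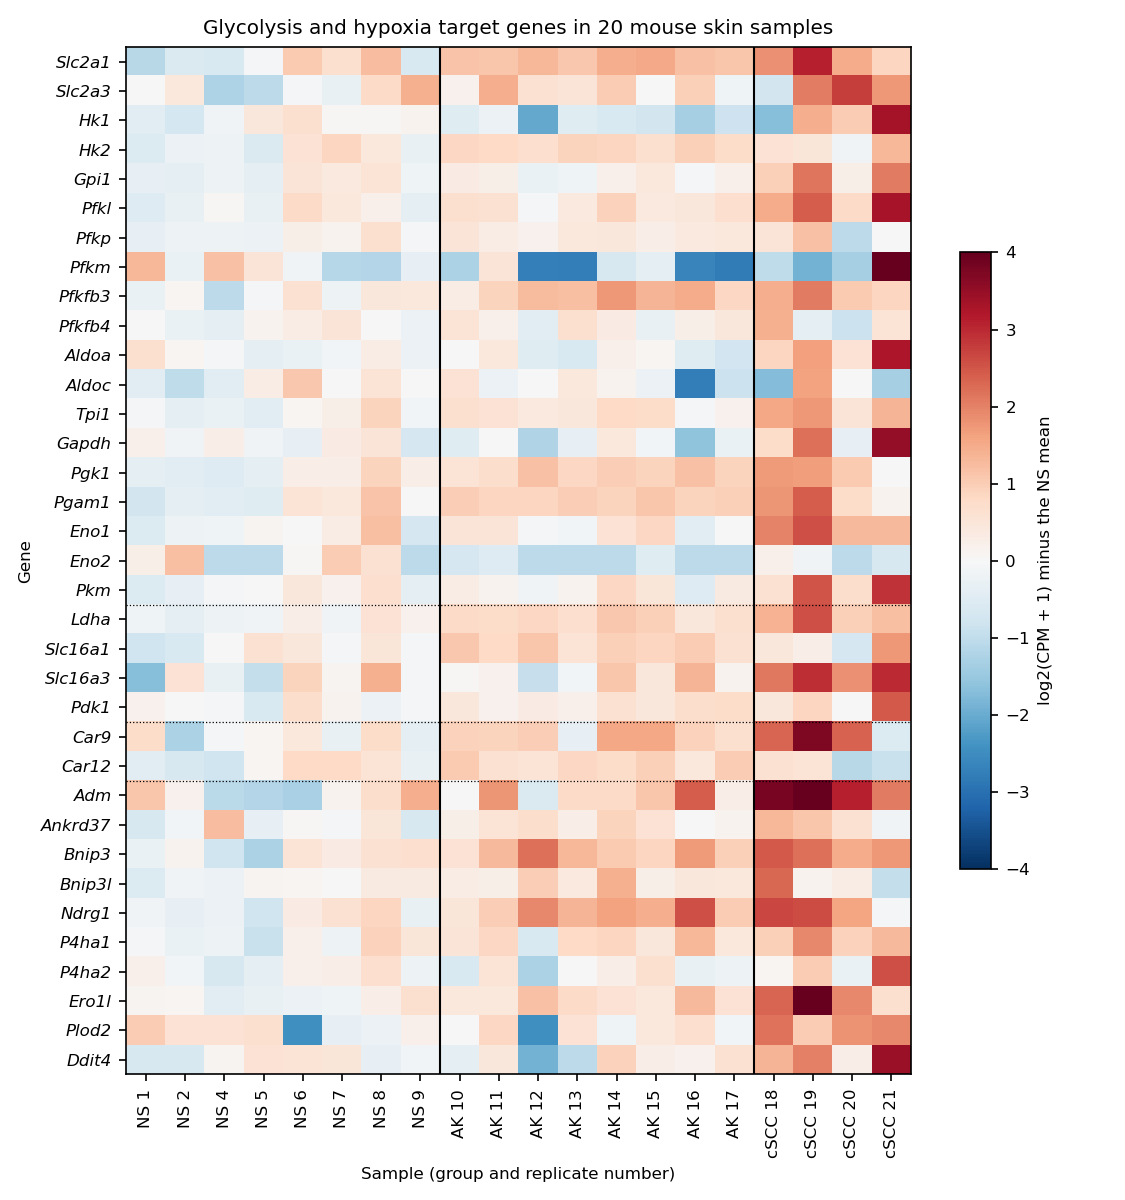
Level of each member (rows) in each of the 20 samples (columns) as log2(CPM + 1) minus the NS mean, with red above and blue below the NS mean. The dotted lines part the 4 role groups, and cSCC 19 and cSCC 21 are red over different enzymes, with cSCC 21 alone dark red for Pfkm.

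Glucose enters the cell through facilitative transporters, of which Slc2a1 encodes GLUT1, the main form in epidermis. Slc2a1 was at 30.8 to 161 CPM in NS (median 55.0) and at 143 to 196 CPM in AK (median 152), and at 240, 589, 192 and 124 CPM in cSCC 18, 19, 20 and 21. Thus 7 of the 8 NS samples were below every AK sample and NS 8 was inside the AK range, while cSCC 21 was below all AK samples. The log2 fold change was 1.02 ± 0.29 (SE) in AK vs. NS (adjusted p = 0.0456), 1.90 ± 0.48 in cSCC vs. NS (adjusted p = 0.0150) and 0.93 ± 0.31 in cSCC vs. AK (adjusted p = 0.0417). The calls were thin: that of AK vs. NS was lost on leaving out any of 12 samples, that of cSCC vs. AK on leaving out any of 10, and that of cSCC vs. NS without cSCC 19 (log2 fold change 1.27). Slc2a3, which encodes the high-affinity transporter GLUT3, was low, at up to 9.57 CPM in NS and 9.75 CPM in AK and at 1.39, 15.4, 26.2 and 12.1 CPM in cSCC. It did not pass in cSCC vs. NS (log2 fold change 1.94 ± 0.68, adjusted p = 0.0599), but passed without cSCC 18 (2.29, adjusted p = 0.0175).

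Hexokinases trap glucose by phosphorylation, and Hk1 is the widespread form while Hk2 is the form that HIF-1 induces. Hk2 was at 63.4 to 173 CPM in NS (median 81.6), at 148 to 186 CPM in AK (median 169), and at 143, 134, 85.3 and 240 CPM in cSCC 18 to 21. Only NS 7 was inside the AK range, and the tumors other than cSCC 21 were below every AK sample. It was higher in AK than in NS (log2 fold change 0.71 ± 0.19, adjusted p = 0.0388), a call lost on leaving out any of 12 samples, and did not pass in cSCC vs. NS (0.63 ± 0.34, 95% interval -0.02 to 1.29). Hk1 was at 7.82 to 21.4 CPM in NS (median 13.9), at 2.52 to 11.3 CPM in AK (median 8.06), and at 3.47, 38.7, 28.4 and 144 CPM in cSCC. Thus cSCC 18 was inside the AK range and the other tumors were above every NS and AK sample, with the highest level in cSCC 21, the sample with heart muscle markers. Hk1 was higher in cSCC than in NS (2.03 ± 0.57, adjusted p = 0.0240) and in AK (2.99 ± 0.60, adjusted p = 0.00450). Without cSCC 21 the first was lost (0.81) and the second remained (1.61, adjusted p = 0.0447). In AK vs. NS Hk1 had a log2 fold change of -0.85 ± 0.26 (adjusted p = 0.0606), and DESeq2 called it lower (adjusted p = 0.0208).

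Phosphoglucose isomerase (Gpi1) and phosphofructokinase (Pfkl, Pfkp and Pfkm) carry out the next steps, and the latter commits sugar to glycolysis. Gpi1 ranged from 64.0 to 125 CPM in NS and from 70.6 to 115 CPM in AK, and was at 165, 374, 100 and 359 CPM in cSCC. The tumors other than cSCC 20 were above every NS and AK sample, and Gpi1 was higher in cSCC than in NS (log2 fold change 1.56 ± 0.34, adjusted p = 0.00758) and AK (1.57 ± 0.31, adjusted p = 0.00399). Pfkl, the liver-type subunit, was at 19.7 to 50.1 CPM in NS (median 26.5), at 27.7 to 54.9 CPM in AK (median 41.8), and at 82.7, 157, 50.1 and 291 CPM in cSCC. Only cSCC 20 was within the range of NS and AK. Pfkl was higher in cSCC than in NS (2.34 ± 0.39, adjusted p = 0.00210) and AK (1.96 ± 0.36, adjusted p = 0.00314), and stayed called without cSCC 21 (1.74 and 1.22). Pfkp, the platelet-type subunit and the most abundant of these 3 per length in NS (48.8 ± 11.9 CPM per kb of exon, SD, against 8.08 ± 2.78 for Pfkl), was at 296, 467, 99.0 and 205 CPM in cSCC and did not pass in any comparison. Its log2 fold change in cSCC vs. NS was 0.39 (95% interval -0.26 to 1.04).

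Pfkm, the muscle-type subunit, was at 16.7 to 100 CPM in NS (median 34), at 4.80 to 55.7 CPM in AK (median 10.5), and at 18.8, 9.67, 14.8 and 920 CPM in cSCC. The tumors other than cSCC 21 were inside the AK range. Its call in cSCC vs. AK (log2 fold change 3.92 ± 1.05, adjusted p = 0.0161) came from cSCC 21 and turned to -0.38 without it (adjusted p = 0.777). Skeletal muscle markers (14 genes) summed to 835 to 11100 CPM in NS (median 4270) and 29.9 to 6750 CPM in AK (median 1510). These markers and Pfkm were both highest in NS 1 among NS and in AK 11 among AK. In NS 8, the lowest of the NS samples for Pfkm (16.7 CPM), the markers were at 4100 CPM. The part of muscle in the log2 fold change of AK vs. NS (-1.35 ± 0.52, adjusted p = 0.118) was not tested. The bifunctional enzymes Pfkfb3 and Pfkfb4 set the level of fructose 2,6-bisphosphate, the main activator of phosphofructokinase. Pfkfb3 was at 5.43 to 19.2 CPM in NS (median 12.3), at 15.3 to 42.8 CPM in AK (median 29.7), and at 34.7, 54.9, 26.2 and 23.0 CPM in cSCC. All cSCC samples were above all NS samples and inside or above the AK range. Pfkfb3 was higher in AK (1.16 ± 0.25, adjusted p = 0.0190) and in cSCC (1.49 ± 0.34, adjusted p = 0.00932) than in NS, and both calls held on leaving out any sample. Pfkfb4 was at 6.78 to 13.2 CPM in NS, at 6.31 to 14.5 CPM in AK and at 25.7, 6.59, 4.55 and 13.7 CPM in cSCC, and did not pass in any comparison.

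The lower part of glycolysis runs from aldolase to pyruvate kinase. Aldoa, the main aldolase, was at 596 to 1180 CPM in NS (median 711), at 447 to 1020 CPM in AK (median 652), and at 1380, 2380, 1120 and 7130 CPM in cSCC. All cSCC samples were above all AK samples, and cSCC 20 was within the NS range. Aldoa was higher in cSCC than in NS (log2 fold change 2.02 ± 0.45, adjusted p = 0.00814) and AK (2.30 ± 0.45, adjusted p = 0.00414), and without cSCC 21 the values were 1.11 and 1.26, both still called. Aldoc, a brain-type aldolase, was at up to 30.4 CPM in NS and 44.4 CPM in cSCC 19 and did not pass in any comparison. Triosephosphate isomerase (Tpi1) was at 380 to 958 CPM in NS, at 495 to 888 CPM in AK and at 1500, 1700, 735 and 1330 CPM in cSCC, with log2 fold changes of 1.35 ± 0.32 in cSCC vs. NS (adjusted p = 0.0107) and 1.00 ± 0.27 in cSCC vs. AK (adjusted p = 0.0172, lost without AK 12). Only cSCC 20 was inside the range of the other groups.

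Gapdh, often used as a reference gene, was at 7.66 to 18.9 CPM in NS (median 13.3), at 3.60 to 17.5 CPM in AK (median 10.3), and at 22.2, 62.8, 10.2 and 157 CPM in cSCC. The tumors other than cSCC 20 were above every NS and AK sample. These levels were low for this enzyme: in NS they came to 8.95 ± 2.51 CPM per kb of exon (SD, n = 8), against 426 ± 108 for Aldoa and 303 ± 106 for Tpi1. In the GENCODE transcripts 79 other genes, most of them processed copies, share at least 95% identity with Gapdh over at least 150 bases, and where reads that match several genes were counted is not given in the sources used here, so its counts are uncertain. The fold changes (log2 fold change 2.32 ± 0.50 in cSCC vs. NS, adjusted p = 0.00748, and 2.81 ± 0.55 in cSCC vs. AK, adjusted p = 0.00398) are those of the reads assigned to Gapdh, and without cSCC 21 they were 1.31 and 1.66, both still called. Other genes with near-identical stretches were also found for Bnip3 (5 genes), Pgk1 and Ldha (4 each), Eno1 (3) and Pkm (2). Not all are copies elsewhere: Gm45507 overlaps exons of Bnip3 on the opposite strand, and Gm49759 overlaps exons of Pkm on the same strand.

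Phosphoglycerate kinase (Pgk1) and phosphoglycerate mutase (Pgam1) were higher in both lesions. Pgk1 was at 124 to 335 CPM in NS (median 176), at 260 to 406 CPM in AK (median 333), and at 580, 576, 372 and 179 CPM in cSCC. Only NS 8 was inside the AK range, and cSCC 21 was close to the NS median. Its log2 fold change was 0.82 ± 0.19 in AK vs. NS (adjusted p = 0.0247, lost without NS 4) and 1.23 ± 0.34 in cSCC vs. NS (adjusted p = 0.0231, lost without cSCC 19). Pgam1 was at 79.9 to 296 CPM in NS (median 118), at 244 to 291 CPM in AK (median 254), and at 459, 725, 224 and 149 CPM in cSCC. All AK samples lay in a narrow band inside the upper part of the NS range. The log2 fold changes were 0.80 ± 0.22 (adjusted p = 0.0401, lost on leaving out any of 11 samples) and 1.45 ± 0.42 (adjusted p = 0.0273, lost without NS 4, NS 5 or cSCC 19, with 1.38, 1.37 and 0.96).

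Enolase and pyruvate kinase close the pathway. Eno1 was at 85.3 to 315 CPM in NS (median 129), at 98.9 to 246 CPM in AK (median 166), and at 545, 825, 338 and 339 CPM in cSCC. Every cSCC sample was above every NS and AK sample. The log2 fold changes were 1.84 ± 0.35 in cSCC vs. NS (adjusted p = 0.00435) and 1.72 ± 0.29 in cSCC vs. AK (adjusted p = 0.00248), and both calls held on leaving out any sample. Eno2, the neuronal form, was at up to 3.77 CPM in NS, 0.479 CPM in AK and 1.39 CPM in cSCC, had at most 20 counts in a sample, and was not tested. Pkm was at 218 to 516 CPM in NS (median 316), at 227 to 567 CPM in AK (median 378), and at 497, 1850, 527 and 2390 CPM in cSCC. The tumors cSCC 18 and 20 were in the upper range of NS and AK, and cSCC 19 and 21 were above it. Pkm was higher in cSCC than in NS (2.04 ± 0.41, adjusted p = 0.00579) and AK (1.94 ± 0.41, adjusted p = 0.00547, and 1.34 without cSCC 21), and the counts do not part its splice forms.

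Lactate dehydrogenase A (Ldha) was the most abundant member per length in every group, with a median of 507 CPM per kb of exon in NS, 935 in AK and 1380 in cSCC. Its level was 822 to 1580 CPM in NS (median 961), 1460 to 2240 CPM in AK (median 1770), and 2790, 6340, 2060 and 2440 CPM in cSCC. All cSCC were above all NS, only cSCC 20 was within the AK range, and AK overlapped with the top of NS. The log2 fold change was 0.73 ± 0.16 in AK vs. NS (adjusted p = 0.0190), 1.71 ± 0.35 in cSCC vs. NS (adjusted p = 0.00624) and 1.03 ± 0.33 in cSCC vs. AK (adjusted p = 0.0334). The first 2 calls held on leaving out any sample, while that of cSCC vs. AK was lost on leaving out any of 9, and was 0.55 without cSCC 19.

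The lactate transporters parted. Slc16a1 encodes MCT1, which carries lactate in either direction, and was at 72.9 to 193 CPM in NS (median 124), at 185 to 275 CPM in AK (median 236), and at 173, 153, 79.6 and 421 CPM in cSCC. Only NS 5 was inside the AK range, and the tumors other than cSCC 21 were below every AK sample. It was higher in AK than in NS (log2 fold change 0.80 ± 0.18, adjusted p = 0.0239, lost without NS 4), and in cSCC vs. AK was at -0.02 ± 0.35 (95% interval -0.70 to 0.67). Without cSCC 21, Slc16a1 was lower in cSCC than in AK (-0.78, adjusted p = 0.0418). Slc16a3 encodes MCT4, the exporter of highly glycolytic cells, and was at 1.06 to 17 CPM in NS (median 5.77), at 2.52 to 16.2 CPM in AK (median 6.45), and at 27.8, 50.5, 22.8 and 51.8 CPM in cSCC. Every cSCC sample was above every NS and AK sample, while NS and AK covered the same range. Slc16a3 was higher in cSCC than in NS (2.52 ± 0.53, adjusted p = 0.00690) and AK (2.39 ± 0.41, adjusted p = 0.00248) on leaving out any sample, and at 0.19 ± 0.45 in AK vs. NS. Pdk1 limits the oxidation of pyruvate in mitochondria by inhibiting pyruvate dehydrogenase. It was at 25.4 to 64.8 CPM in NS, at 45.1 to 66.1 CPM in AK and at 54.9, 72.9, 39.8 and 222 CPM in cSCC. The tumors cSCC 19 and 21 were above every NS and AK sample. It was higher in cSCC than in NS (1.33 ± 0.39, adjusted p = 0.0275), a call lost without NS 5 (1.25) or cSCC 21 (0.50).

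Carbonic anhydrases 9 and 12 turn carbon dioxide into bicarbonate and protons at the cell surface. Car9, a marker of hypoxic tumor cells, was at 0 to 3.04 CPM in NS (median 1.47), at 0.935 to 6.07 CPM in AK (median 3.59), and at 11.1, 30.8, 11.4 and 0.662 CPM in cSCC. Thus 3 tumors were above every NS and AK sample, and cSCC 21 was within the NS range. Car9 was higher in cSCC than in NS (log2 fold change 3.08 ± 0.78, adjusted p = 0.0157), a call lost without cSCC 19 (2.22). In cSCC vs. AK it passed narrowly (1.91 ± 0.66, adjusted p = 0.0476), and the call was lost on leaving out any of 11 of the 12 samples. Car12 was at 37.0 to 115 CPM in NS, at 89.3 to 136 CPM in AK and at 101, 97.1, 29.6 and 34.7 CPM in cSCC, with a log2 fold change of 0.66 ± 0.22 in AK vs. NS (adjusted p = 0.0797) and -0.69 ± 0.31 in cSCC vs. AK (adjusted p = 0.111). The tumors with lung and heart markers were the lower pair, and without cSCC 18 Car12 was lower in cSCC than in AK (-1.03, adjusted p = 0.0312).

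**Figure D3:**
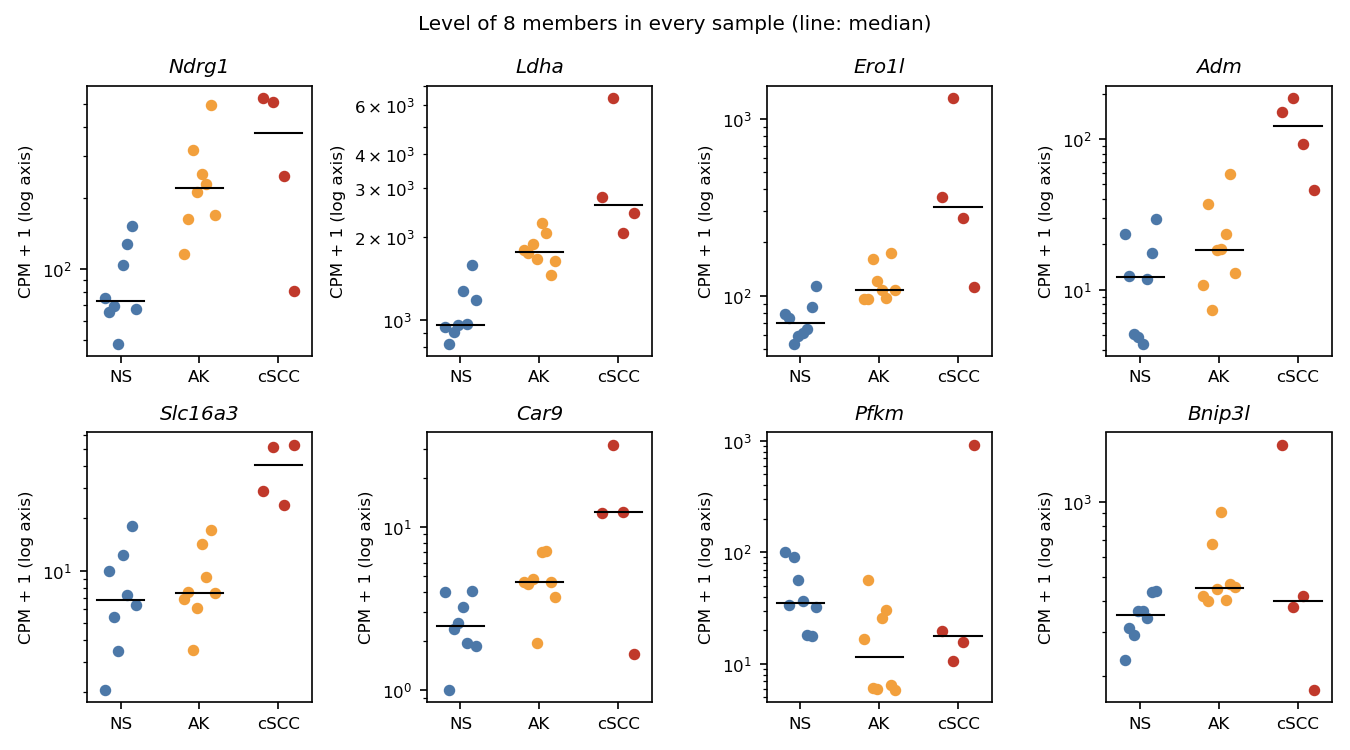
CPM + 1 on a log axis (y) of 8 members in every NS, AK and cSCC sample (x), each point a sample and each line the group median. Slc16a3 in cSCC (22.8 to 51.8 CPM) lies above all other samples, whereas Pfkm (920 CPM in cSCC 21) and Bnip3l (1690 CPM in cSCC 18) are each raised by a lone tumor.

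Among the other hypoxia targets, Adm encodes adrenomedullin, a peptide that dilates vessels. It was at 3.38 to 28.3 CPM in NS (median 11.1), at 6.31 to 57.5 CPM in AK (median 17.4), and at 150, 186, 92.2 and 45 CPM in cSCC. Only AK 16 (57.5 CPM) was above the lowest tumor. Adm was higher in cSCC than in NS (log2 fold change 3.26 ± 0.53, adjusted p = 0.00198) and AK (2.49 ± 0.49, adjusted p = 0.00406), both on leaving out any sample. Ero1l encodes the oxidase that drives disulfide bonds in the endoplasmic reticulum, and was at 52.6 to 112 CPM in NS (median 68.8), at 94.7 to 174 CPM in AK (median 106), and at 361, 1300, 273 and 111 CPM in cSCC. The 3 tumors other than cSCC 21 were above every NS and AK sample. Ero1l was higher in AK than in NS (0.69 ± 0.18, adjusted p = 0.0351, lost on leaving out any of 9 samples), and in cSCC than in NS (2.85 ± 0.45, adjusted p = 0.00175) and AK (2.20 ± 0.45, adjusted p = 0.00480). Without cSCC 19 these values were 1.82 and 1.15, both still called.

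Ndrg1 and Bnip3 had the largest fold changes of the members called in AK. Ndrg1, a stress-responsive gene of differentiating epithelium, was at 47.2 to 151 CPM in NS (median 71.7), at 115 to 495 CPM in AK (median 219), and at 527, 506, 247 and 79.7 CPM in cSCC. Only NS 7 and NS 8 overlapped with AK, and cSCC 21 stayed in the NS range. Its log2 fold change was 1.46 ± 0.28 in AK vs. NS (adjusted p = 0.0156), 2.00 ± 0.42 in cSCC vs. NS (adjusted p = 0.00651) and 0.56 ± 0.44 in cSCC vs. AK (adjusted p = 0.370). Bnip3, a receptor for the removal of mitochondria, was at 49.3 to 194 CPM in NS (median 142), at 180 to 557 CPM in AK (median 273), and at 665, 558, 339 and 408 CPM in cSCC. Every cSCC sample was above every NS sample. Bnip3 was higher in AK (1.18 ± 0.28, adjusted p = 0.0263, lost without NS 1, NS 4 or AK 16 at 1.13, 1.09 and 1.12) and cSCC (1.94 ± 0.35, adjusted p = 0.00321) than in NS.

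The related receptor Bnip3l, which also clears mitochondria from maturing red cells, was at 231 to 438 CPM in NS, at 401 to 912 CPM in AK and at 1690, 379, 420 and 175 CPM in cSCC. Its highest levels were in cSCC 18 and AK 14, the samples with 46.8% and 14.3% haemoglobin counts, and the part of red cells in them was not tested. Bnip3l did not pass in cSCC vs. NS (log2 fold change 0.98 ± 0.44, adjusted p = 0.133), with -0.06 without cSCC 18 and a call without cSCC 21 (1.29, adjusted p = 0.0331).

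The prolyl hydroxylases P4ha1 and P4ha2 and the lysyl hydroxylase Plod2 modify collagen. P4ha1 was at 22.7 to 82.5 CPM in NS (median 39.1), at 27.7 to 109 CPM in AK (median 68.9), and at 84.7, 165, 83.1 and 107 CPM in cSCC. All cSCC were above all NS, by a small margin, and the log2 fold change was 1.32 ± 0.31 (adjusted p = 0.0110) on leaving out any sample. P4ha2 was at 10.2 to 26.8 CPM in NS (median 17), at 6.31 to 26.2 CPM in AK (median 15.3), and at 17.4, 34.7, 13.7 and 103 CPM in cSCC. Again cSCC 19 and 21 were above every NS and AK sample and the other tumors were not. Its calls in cSCC vs. NS (1.39 ± 0.45, adjusted p = 0.0417) and cSCC vs. AK (1.54 ± 0.49, adjusted p = 0.0328) were lost on leaving out any of 9 and 7 samples, and without cSCC 21 both were 0.43. Plod2 was at up to 10.2 CPM in NS and 8.67 CPM in AK, and at 23.6, 10.1, 18.2 and 19.8 CPM in cSCC. Every tumor was above every AK sample, and cSCC 19 was level with the highest NS. It was higher in cSCC than in AK on leaving out any sample (1.82 ± 0.48, adjusted p = 0.0160), while the call in cSCC vs. NS (1.72 ± 0.57, adjusted p = 0.0465) was lost on leaving out any of 9.

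Ddit4 encodes REDD1, an inhibitor of the growth kinase mTORC1. It was at 4.35 to 11.5 CPM in NS (median 7.48), at 1.26 to 15.1 CPM in AK (median 8.75), and at 20.8, 33.4, 9.10 and 90.3 CPM in cSCC, so that only cSCC 20 was in the range of NS. Ddit4 was higher in cSCC than in NS (log2 fold change 2.38 ± 0.48, adjusted p = 0.00555, and 1.49 without cSCC 21) and AK (2.41 ± 0.56, adjusted p = 0.00870, lost without cSCC 21 at 1.38). Ankrd37 was at 9.79 to 39.0 CPM in NS, at 16.2 to 30.5 CPM in AK and at 41.0, 35.6, 25.0 and 14.2 CPM in cSCC, and did not pass in any comparison. Exons of Ankrd37, Slc2a1, Gpi1, Pfkp, Pfkm, Aldoa, Tpi1, Car9, Bnip3, Ndrg1 and Plod2 overlap an annotated gene on the opposite strand, and since the strand setting of the counting is not given in the sources used here, reads of the overlapping genes cannot be told apart.

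Pairs of related genes were then compared within samples, as the log2 ratio of CPM + 1, in 12 pairs and 3 comparisons (36 two-sided exact permutation tests, adjusted together). Library totals cancel in such a ratio except through the added 1, which weighs on genes at low levels. In AK vs. NS, 6 ratios differed. The ratio of Hk2 to Hk1 rose from 2.73 ± 0.57 (SD, n = 8) in NS to 4.38 ± 0.56 (n = 8) in AK with no overlap (exact p = 0.000155, the smallest possible, adjusted p = 0.00280). The ratio of Ldha to Ldhb, the heart-type subunit, likewise rose from 3.56 ± 0.60 to 5.06 ± 0.54 with no overlap (exact p = 0.000155, adjusted p = 0.00280). Ldhb itself was at 62.3 to 146 CPM in NS and at 29.0 to 78.3 CPM in AK. Pfkm to Pfkl fell by 2.09 (exact adjusted p = 0.0198). The median of skeletal muscle markers was lower in AK, as given above. Their part in the ratios with Ldhb and Pfkm was not tested. Pfkfb4 to Pfkfb3 fell by 0.93, Eno2 to Eno1 by 1.08 and P4ha2 to P4ha1 by 0.69 (exact adjusted p = 0.0280, 0.0180 and 0.0325), and these 3 did not pass with a pseudocount of 0.1.

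In cSCC the subunit ratio of phosphofructokinase and the ratio of lactate transporters changed. Pfkp to Pfkl was 2.79 ± 0.33 in NS, 2.66 ± 0.21 in AK (n = 8 each) and 1.83, 1.56, 0.97 and -0.50 in the 4 cSCC, below every other sample (exact p = 0.00202, the smallest possible, adjusted p = 0.0121 against either group). Slc16a3 to Slc16a1 was -4.26 ± 0.92 in NS, -4.85 ± 0.74 in AK and -2.60, -1.58, -1.76 and -3.0 in cSCC, above every other sample (exact adjusted p = 0.0180 and 0.0121). Both held on leaving out any sample and with a pseudocount of 0.1. Car12 to Car9 fell by 2.18 against NS and 2.05 against AK (exact adjusted p = 0.0198 and 0.0280), Bnip3 to Bnip3l rose by 1.52 against NS (exact adjusted p = 0.0325), and Hk2 to Hk1 fell by 2.11 against AK (exact adjusted p = 0.0325). These did not pass with a pseudocount of 0.1, and neither did the ratio of Eno2, a gene near 0, to Eno1, which fell by 2.18 and 1.10 (exact adjusted p = 0.0180 and 0.0121).

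**Figure D4:**
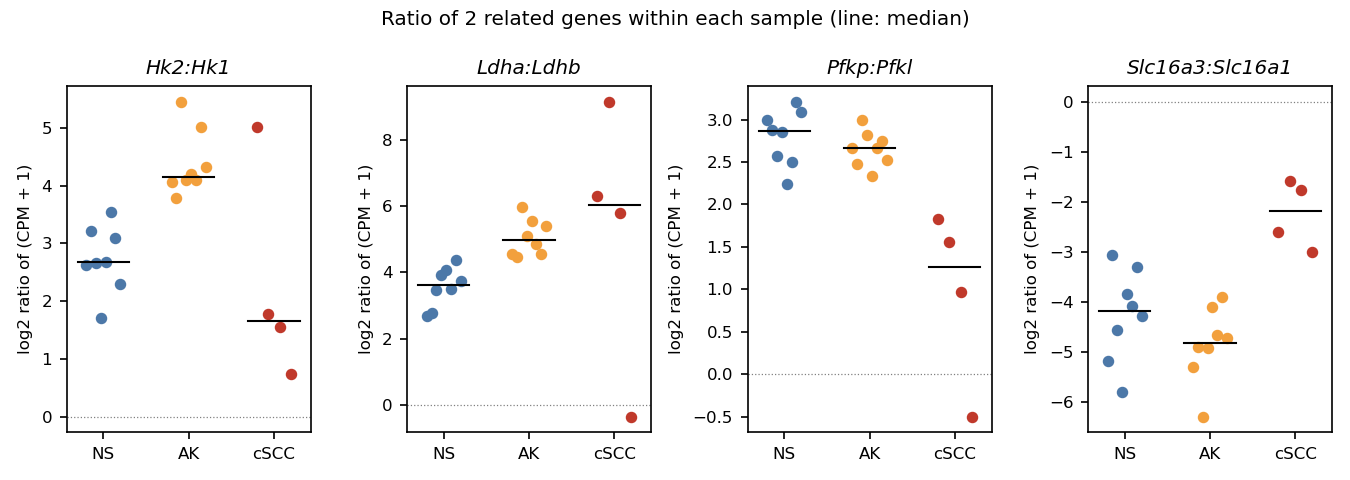
Log2 ratio of CPM + 1 (y) of 4 gene pairs in every NS, AK and cSCC sample (x), each point a sample and each line the group median. Hk2:Hk1 and Ldha:Ldhb of AK lie above all NS, while Pfkp:Pfkl of cSCC lies below and Slc16a3:Slc16a1 of cSCC above all NS and AK.

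The tumors differed in which members they raised. Of the 34 members, 23 were above every NS sample in cSCC 18 (67.6%, against 20.7% of all genes), 26 in cSCC 19 (76.5%, against 24.7%), 16 in cSCC 20 (47.1%, against 21.4%) and 23 in cSCC 21 (67.6%, against 32.6%). In AK samples the number was 5 to 13. It was 14.7% of members against 10.9% of all genes in AK 10, 23.5% against 9.02% in AK 11, 29.4% against 18.4% in AK 12 and 26.5% against 12.3% in AK 13. In AK 14 it was 38.2% against 13%, in AK 15 23.5% against 9.78%, in AK 16 32.4% against 17.9% and in AK 17 26.5% against 12.3%, so that the members' share above NS was the larger in every lesion. Some members were below every NS sample: 7 in AK 12, 5 in AK 16 and 0 to 3 in the other AK, and 2, 2, 4 and 3 in cSCC 18 to 21. The share of all genes below every NS sample is not given here. The summed level of all members was 3961 to 7151 CPM in NS, 6076 to 8404 in AK and 12730, 19960, 7729 and 18340 in cSCC 18 to 21. The sample cSCC 19, with neither lung, heart nor abundant red cell RNA, held the highest tumor level of 13 members (38.2%, against 20.4% of all genes), among them Slc2a1, Ldha, Car9, Adm and Ero1l. The sample cSCC 21 held the highest of 12 (35.3%, close to the 34.1% of all genes), among them Hk1, Pfkm, Aldoa, Gapdh and Pkm, and was at or below the NS maximum for Slc2a1, Pgk1, Pgam1, Car9, Ndrg1 and Ero1l. The sample cSCC 20 was highest for 1 member (2.94%, against 20% of all genes) and lowest for 18. What share of all genes was lowest in cSCC 20 is not given here.

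**Figure D5:**
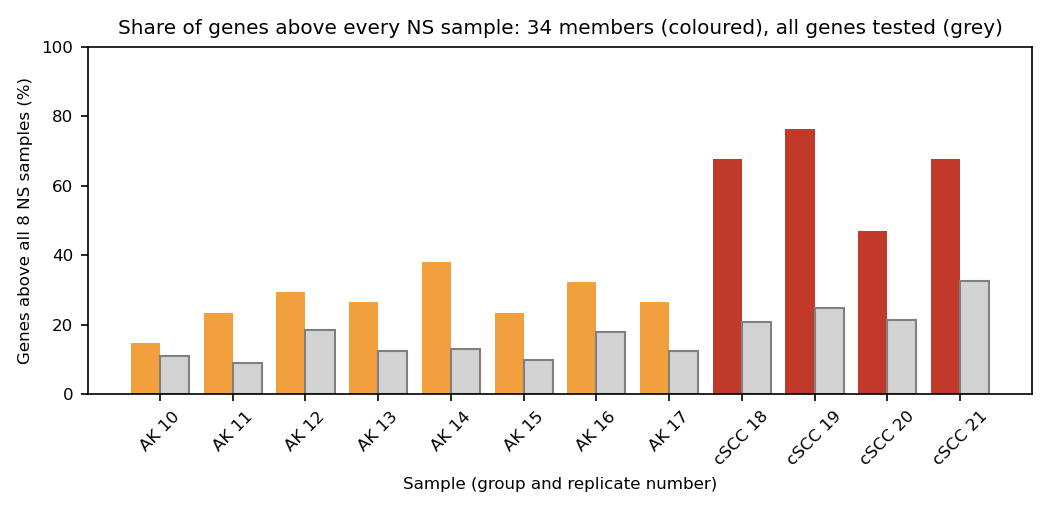
Share of genes (y, percent) whose level in a given AK or cSCC sample (x) exceeded all 8 NS samples, in colour for the 34 members and in grey for all genes tested. The coloured bar is above the grey one in every sample, and reaches 47.1% to 76.5% in cSCC.

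Other genes of the same pathways, 37 of glycolysis and its branches and 38 further hypoxia targets with 2 in common, were examined in the same fits. Of the 64 tested in AK vs. NS, 1 was higher and 3 were lower, beside 2.26% and 2.38% of all genes. With DESeq2 the count of higher genes was 5, and that of all genes went from 264 to 433 of 11677. With limma voom the count was 8, and the share of all genes is not given here. The higher gene was Vegfa, the main growth factor of blood vessels, at 2.70 to 8.13 CPM in NS, 5.04 to 27.6 CPM in AK and 15.3, 26.8, 115 and 18 CPM in cSCC, with log2 fold changes of 1.60 ± 0.32 in AK vs. NS (adjusted p = 0.0184) and 3.0 ± 0.51 in cSCC vs. NS (adjusted p = 0.00250). Every tumor was above every NS sample, and the highest was cSCC 20, the tissue with lung markers. The lower genes were the insulin-responsive transporter Slc2a4 (-2.24 ± 0.53, adjusted p = 0.0266) and Ldhb (-0.73 ± 0.21, adjusted p = 0.0490), both abundant in muscle, and the heme oxygenase Hmox1 (-0.64 ± 0.17, adjusted p = 0.0341).

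In cSCC vs. NS, 20 of 67 other pathway genes were higher (29.9%) and 2 lower, beside 11.7% and 7.65% of all genes. In cSCC vs. AK, 20 of 66 were higher (30.3%) and 1 lower, beside 16% and 8.34% of all genes. The largest changes belonged to genes at high levels in the tissues named above. Pdk2 was at 929 CPM in cSCC 21 and at most 4.47 CPM elsewhere (6.27 ± 1.23 in cSCC vs. NS, -0.24 without cSCC 21). Slc2a4 was at 516 CPM in cSCC 21 and at most 18 elsewhere (log2 fold change 4.06 ± 1.06 in cSCC vs. NS and 6.40 ± 1.18 in cSCC vs. AK, -0.26 and 1.98 without cSCC 21). Ldhb was at 3150 CPM in cSCC 21 and at 34, 10.1 and 36.4 CPM in the other tumors, below every NS sample. Its log2 fold change in cSCC vs. AK was 4.08 ± 1.03 and turned to -1.08 without cSCC 21, and in cSCC vs. NS from 3.22 to -1.75, where it was called lower (adjusted p = 0.0114). Gpd1 (3.64 ± 0.96 in cSCC vs. AK) lost its call without cSCC 21 (1.42). Bpgm, an enzyme of red cells, was at 2470 CPM in cSCC 18 and 931 CPM in AK 14, and its call in cSCC vs. NS (3.51 ± 0.75) was lost without cSCC 18 (1.25). Tmem45a was lower, at 931, 85.7, 400 and 14.1 CPM in cSCC against 983 to 2440 CPM in NS and 1420 to 3150 CPM in AK (-2.38 ± 0.78 and -2.41 ± 0.76, adjusted p = 0.0464 and 0.0316). Slc2a12 was lower in cSCC than in NS (-2.30 ± 0.70, adjusted p = 0.0340). Without cSCC 21 the count of higher genes was 13 in cSCC vs. NS and 9 in cSCC vs. AK, against 20 and 20 with it. The shares of all genes called without cSCC 21 are not given here, so these counts have no background.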

How the data were processed

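RNA-seq of 8 NS, 8 AK and 4 cSCC tissues was examined, grouped by sample label. Per the paper's methods, the authors used Trimmomatic for trimming, HISAT2 for alignment to GRCm38 and StringTie for quantification, whereas the submitters' processing notes list Trimmomatic 0.36, HISAT2 2.0.5, featureCounts 1.5.2 and the builds mm9 and hg19. The authors deposited raw counts per gene symbol, without normalization. CPM used edgeR's TMM factors over the 20 samples (edgeR 4.0.16, R 4.3.3). Each comparison was fitted on its own samples by quasi-likelihood in edgeR after its filterByExpr step, and the SE is the log2 fold change divided by the square root of F. On simulated data, with log2 fold changes of 2 in either direction, 89.1% of 192 changed genes were recovered for AK vs. NS. For cSCC the shares were 48% of 198 against NS and 55.1% of 198 against AK. No pair of samples of a group agreed within counting noise (smallest chi-square per degree of freedom 11.3 over 62 pairs). The p-values measure the spread between these samples. Exonic lengths are from GENCODE M21, and near-identical transcripts were found with BLAST 2.17.0. Alternatives were DESeq2 1.42.0, limma 3.58.1 voom, other scalings and filters, unadjusted p-values, calls without a limit on fold change, all 20 samples in 1 fit, other pseudocounts and leaving out samples. The members and lists were chosen with earlier results of these data known. Named were all members, with values by sample for called members among the 8 largest fold changes per comparison and for genes of ratios that passed, plus the 3 other pathway genes per direction with the largest fold changes. Values of further members were added after they were seen.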

Additional observations from a re-analysis of the deposited data

Results flagged for a closer look

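For each member the highest and lowest sample of each group was compared with its nearest neighbour as log2(CPM + 1). In 5 of 105 groups the gap was a larger share of the group's range than Dixon's 95% limit allows. Chance gives about 1 in 20. Pfkm was at 920 CPM in cSCC 21, far above the other 3 tumors. Aldoc was at 1.20 CPM (2 counts) in AK 16, where 3 counts correspond to 1.80 CPM, and P4ha1 at 27.7 CPM in AK 12, each far below the other AK. Plod2 was at 0 in NS 6 and at 0 in AK 12, where 3 counts correspond to 1.69 and 3.78 CPM.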

How the results depend on the processing

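The counts of members higher in cSCC than in NS stayed within 1.5 times of 24 under every alternative (20 to 25 on leaving out 1 sample). In AK vs. NS the 10 members became 0 in the fit over all 20 samples and 3 to 10 on leaving out 1 sample (3 without NS 4). In cSCC vs. AK the 18 became 11 with limma voom and 14 to 19 on leaving out 1 sample. None of these counts is set beside the share of all genes called in its fit. With library size alone, the split of all genes higher and lower moved from 1414 and 926 to 625 and 1332 in cSCC vs. NS and from 1931 and 1004 to 1021 and 1356 in cSCC vs. AK, with medians of -0.17 and -0.09, and members from 24 and 0 to 17 and 0 and from 18 and 0 to 12 and 1. In AK vs. NS that split moved from 264 and 278 to 176 and 481. The causes were not tested.

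Other pathway genes higher in AK vs. NS numbered 1, and 8 with an unadjusted p-value, 5 with DESeq2, 8 with limma voom, 0 with 10 counts in every sample or all 20 samples in 1 fit, and 1 to 5 on leaving out 1 sample (4 without NS 7, 5 without NS 8, 2 without NS 9 or AK 10). Counts of genes in this paragraph stand without the shares of all genes called in the same fits. In cSCC vs. NS the 20 became 10 with limma voom, library size alone or cSCC 20 and 21 left out, 8 with cSCC 19 alone and 13 to 22 on leaving out 1 sample. In cSCC vs. AK the 20 became 11, 12 and 10 under the same settings, 13 with 10 counts in every sample, 11 with cSCC 19 alone and 9 to 27 on leaving out 1 sample (13 without AK 12). In the order AK vs. NS, then cSCC vs. NS and vs. AK, the ratios that passed numbered 6, 5 and 5, and 3, 2 and 2 with a pseudocount of 0.1, 5, 4 and 3 from counts + 1, and 5 to 7, 3 to 7 and 3 to 5 on leaving out 1 sample (3 and 3 without cSCC 20). The log2 fold change of Pfkm in cSCC vs. AK was -0.38 to 4.42 on leaving out 1 sample, with -0.38 without cSCC 21, and turned to -0.36 without cSCC 20 and 21 and -0.95 with cSCC 19 alone. Among members that did not pass, 66 of 1280 values over all settings changed sign, in 13 genes. cSCC 19 as the lone tumor, assumed to vary like the other groups, and leaving out the haemoglobin genes were chosen after seeing the data. No paired analysis was possible because the labels give no replicate number that recurs across groups and not the mouse of a tissue.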
